A study of Mus musculus with 4 samples.

Results

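The antioxidant and glutathione enzymes of mouse sciatic nerve were described as 61 genes of the 50593 genes listed in the table. They were chosen by gene symbol alone: the glutathione S-transferases of the alpha, mu, omega, pi, theta and zeta classes, the microsomal transferases, the glutathione peroxidases, peroxiredoxins, thioredoxins, thioredoxin reductases and superoxide dismutases, together with Cat, Hmox1, Hmox2, Nqo1, Gclc, Gclm, Gsr, Gss, Srxn1, Slc7a11, Nfe2l2 and Keap1. Symbols marked as pseudogenes were left out. Values did not enter this rule, although it was set with earlier results of these data known. The symbol rule also took in Gstcd, a gene named for a transferase-like domain, and Prdx2-rs3, the only member that is not annotated as protein-coding. The sciatic nerve came from mice of strain 129S1/SvImJ at 6 months of age, with 2 mice in the group HSF V30M and 2 in the group HSF WT. Mice of the HSF V30M group carried a transgene for human TTR V30M, lacked endogenous TTR and were heterozygous for deletion of Hsf-1, the gene of heat shock factor 1. HSF WT mice shared the heterozygous Hsf-1 deletion and served as controls. By these descriptions neither group had both copies of Hsf-1, so the groups were not set up to compare the deletion itself. The table gave 1 FPKM value (a count of fragments corrected for transcript length and library depth) per gene and group and none per mouse, so the spread between mice was not known for any value and no test between the genotypes was made.

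These enzymes act in sequence. Superoxide dismutases turn superoxide into hydrogen peroxide, which catalase, the glutathione peroxidases and the peroxiredoxins then reduce. Glutathione and thioredoxin supply the electrons, glutathione reductase and the thioredoxin reductases restore them from NADPH, and the glutathione S-transferases couple glutathione to lipid peroxidation products and other electrophiles. The transcription factor NRF2, encoded by Nfe2l2, is held in check by KEAP1 and drives many of these genes through the antioxidant response element. In peripheral nerve this defence is of interest because myelin is rich in lipids that oxidise readily.

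Promoter sequences are shown because NRF2 acts through a short sequence, the core of the antioxidant response element, searched here as TGACNNNGC on both strands, where N is any base. A promoter was taken as 250 bases before to 50 bases after a transcription start, from RefSeq on GRCm38.p6. Of the 61 genes, 52 had such an entry, with 69 promoters, of which 10 held the core (14.5%). Among all 32851 promoters of that length, 12.4% held it. The 10 promoters belonged to 10 genes, and the 8 of these with the largest difference between the genotypes are shown with 10 flanking bases, the core in capitals and each printed along the strand on which the core reads 5′ to 3′.
Srxn1, chr2:152105542-152105570, minus strand: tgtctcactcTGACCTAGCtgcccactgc
Mgst1, chr6:138140461-138140489, minus strand: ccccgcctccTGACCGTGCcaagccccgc
Gsta3, chr1:21240454-21240482, plus strand: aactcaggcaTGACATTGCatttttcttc
Gstm5, chr3:107895802-107895830, plus strand: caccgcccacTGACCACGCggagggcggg
Gclm, chr3:122245413-122245441, minus strand: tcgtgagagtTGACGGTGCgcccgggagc
Nfe2l2, chr2:75704885-75704913, minus strand: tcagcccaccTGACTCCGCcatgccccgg
Sod1, chr16:90220696-90220724, minus strand: ggcctgagtcTGACCACGCccaccttggc
Gstm7, chr3:107931725-107931753, minus strand: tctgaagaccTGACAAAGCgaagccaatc
The other matches were in Prdx1 and Txnrd1, and that of Prdx1 was the only one that also held TGACTCA, the letters bound by AP-1. The Srxn1 core lay after the annotated start, the other 7 before it, from 42 bases upstream in Gstm5 to 240 bases upstream in Nfe2l2. No core was found in this window of Nqo1, which says nothing of the gene's more distant sequence. The 9 members without a promoter entry were not searched. They were Gclc, Gsr, Gsta4, Gstt2, Hmox1, Prdx2-rs3, Prdx6, Prdx6b and Sod3.

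Across the module, most genes had similar values in the 2 genotypes. Of the 61 genes, 50 had a mean FPKM of at least 1, none of them through 1 group alone. On the log2((HSF V30M + 1) / (HSF WT + 1)) scale, where low genes appear to change less than they do, 4 of these were higher and 3 lower in HSF V30M by more than 1.5-fold, or 14% of them. The background share past that fold was 16.7% of all 15620 genes with that mean and 10.3% of the 12715 protein-coding ones. Higher genes made up 8.0% of the module against 8.22% of all genes, and lower genes 6.0% against 8.44%. Restricted to protein-coding genes, the background shares were 5.03% higher and 5.32% lower. The share of the module past the fold thus lay between the backgrounds of all genes and of protein-coding genes. At a mean of at least 5, where 45 members remain, 11.1% were past the fold beside 13.5% of all genes and 8.13% of protein-coding genes. Any difference was upward for 28 genes and downward for 22, the median log2 ratio was 0.05, and the extremes were -0.71 for Srxn1 and 1.05 for Nqo1. Over all genes of the same minimum the median was 0.00, and 50.4% lay above 0.

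**Figure D1:**
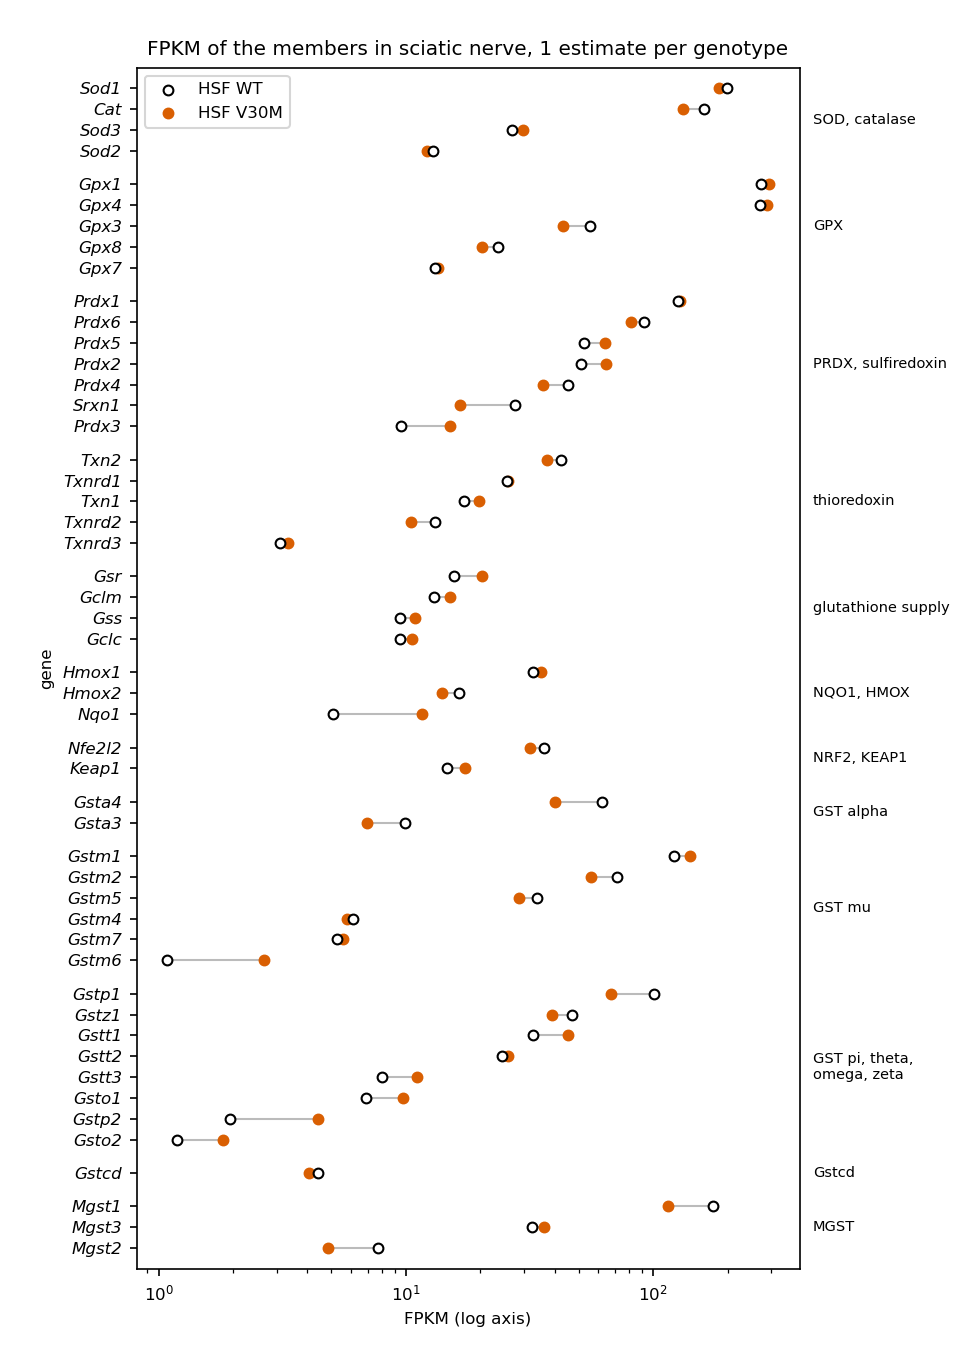
FPKM on a log axis for the 50 expressed genes of the module, ordered by role and within a role by mean level. Open circles are the HSF WT estimate and filled circles the HSF V30M estimate, 1 per genotype; by mean level the genes ran from Gsto2 at 1.82 and 1.19 to Gpx1 at 295 and 272, and for most genes the circles lie close together.

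The highest levels of the module belonged to Gpx1 and Gpx4, followed by Sod1, Cat and Mgst1. Depth is not listed in the table, but the low values of genes with a single transcript came in steps of 1 fragment. From these steps the libraries of HSF WT were 1.35-fold apart in depth and those of HSF V30M, read less surely, 1.19-fold apart. With the steps, a value can be turned into about how many fragments it stands for, and a 95% interval (Clopper-Pearson) for the ratio of the genotypes follows from the lower of those counts. This interval covers counting error only, not the spread between mice. It excluded a ratio of 1 for 25 of the 50 genes. With many fragments even a ratio near 1 can be excluded, as for Gpx4 at 1.06. The same share was not computed over all genes, so nothing about the module is read from this count. Below, where 2 values are given without a group, that of HSF V30M comes first.

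The superoxide dismutases and catalase were all within the 1.5-fold limit. Sod1, the copper-zinc enzyme of the cytosol, had an FPKM of 185 in HSF V30M against 198 in HSF WT. Sod2, the manganese enzyme of mitochondria, had 12.2 in HSF V30M against 12.9 in HSF WT. The secreted form Sod3 had 29.9 against 26.8. For these 3 enzymes the log2 ratio lay between -0.10 and 0.15. Cat, the catalase of peroxisomes, was the lowest of the group on the ratio scale, at 132 in HSF V30M against 160.2 in HSF WT, a log2 ratio of -0.27.

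Glutathione peroxidases reduce peroxides at the expense of glutathione. The most abundant members of the module, Gpx1 and Gpx4, are selenoproteins. Gpx1, the cytosolic enzyme, on chromosome 9 from 108338903 to 108340343, was at 295 in HSF V30M against 272 in HSF WT. Gpx4, which reduces lipid hydroperoxides in membranes and thereby restrains ferroptosis, was at 288 and 271, although 61.7% of its 50-base words also occur in the pseudogene Gpx4-ps2. Both were nearly even between the genotypes, with log2 ratios of 0.12 and 0.09. Gpx3, the secreted plasma form, was at 43.2 in HSF V30M against 55.5 in HSF WT, a log2 ratio of -0.35. In the endoplasmic reticulum, Gpx7 had 13.4 and 13.1, and Gpx8 had 20.4 and 23.5. None of the 5 passed the fold.

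Peroxiredoxins reduce hydrogen peroxide through a reactive cysteine, and this group held both a higher and a lower gene. Prdx3, the peroxiredoxin of the mitochondrial matrix (ENSMUSG00000024997, minus strand of chromosome 19 from 60864051 to 60874556), showed an FPKM of 15.2 in HSF V30M against 9.55 in HSF WT. This stands for about 415 to 492 fragments against 189 to 254, and the ratio was 1.59 with a counting interval from 1.33 to 1.89. Srxn1, the sulfiredoxin that repairs overoxidised peroxiredoxins (ENSMUSG00000032802, plus strand of chromosome 2 from 152105516 to 152111376), went the other way, with 16.5 in HSF V30M against 27.7 in HSF WT. Its HSF WT value was 1.68-fold the HSF V30M value, with a counting interval from 1.54 to 1.83 on about 924 to 1095 fragments against 1117 to 1503. Of the module, Srxn1 had the largest difference in favour of HSF WT on the log2 scale.

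The other peroxiredoxins differed by less. Prdx1, the abundant cytosolic form, was at 129 in HSF V30M against 126 in HSF WT. Prdx2 was at 64.6 and 51.0, a log2 ratio of 0.33. Prdx5, found in mitochondria, peroxisomes and cytosol, was at 64.0 and 52.7. In the other direction, Prdx4 of the endoplasmic reticulum was at 35.8 in HSF V30M against 45.2 in HSF WT. Prdx6, which reduces phospholipid peroxides, was at 81.2 and 91.4. The retrogene Prdx6b was at 0.03 and 0.024, about 2 fragments and 1, and Prdx2-rs3 was listed at 0 in both groups.

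Thioredoxins and their reductases were within the limit throughout. Txn1 of the cytosol had 19.7 in HSF V30M against 17.2 in HSF WT. Txn2 of mitochondria had 37.1 and 42.4. Txnrd1, the cytosolic reductase and a well known NRF2 target, was the most even of the 50 genes on the log2 scale, at 25.8 in HSF V30M against 25.5 in HSF WT. The mitochondrial Txnrd2 had 10.5 and 13.1, and Txnrd3 had 3.35 and 3.09. The log2 ratios of the 5 genes lay between -0.29 and 0.19, and none had a counting interval that excluded a ratio of 1.

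All 4 genes of glutathione synthesis and recycling with a mean of at least 1 had slightly higher values in HSF V30M, and none passed the fold. Gclc, the catalytic subunit of glutamate-cysteine ligase, which carries out the rate-limiting step, was at 10.6 in HSF V30M against 9.51 in HSF WT. Its modifier subunit Gclm was at 15.1 and 13.02. Gss, which completes the tripeptide, was at 10.9 and 9.47. Gsr, the reductase that returns oxidised glutathione to use, had the largest difference of the group, at 20.4 and 15.6, a log2 ratio of 0.36 with a counting interval for the ratio from 1.18 to 1.44. Slc7a11, the cystine carrier that feeds this synthesis, was below the minimum at 0.32 and 0.278, about 15 to 73 fragments against 10 to 52.

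On the log2(FPKM + 1) scale, Nqo1 showed the largest difference of the module. Nqo1 encodes the quinone reductase that is a standard readout of NRF2 activity (ENSMUSG00000003849, minus strand of chromosome 8 from 107388225 to 107403206, with 1 annotated transcript of 1553 bases). The FPKM was 11.6 in HSF V30M against 5.07 in HSF WT, or about 336 to 398 fragments against 106 to 143. The ratio was 2.28, with a counting interval from 1.83 to 2.86, and Nqo1 was the only gene of the module past a fold of 2 on the log2(FPKM + 1) scale, beside 7.92% of all genes. Hmox1, the inducible haem oxygenase, was by contrast at 35.2 and 32.7, and the constitutive Hmox2 at 14.1 and 16.3. Nfe2l2 (NRF2) itself was at 31.7 in HSF V30M against 36.3 in HSF WT, and Keap1 at 17.3 and 14.7, log2 ratios of -0.19 and 0.22. Genes known as NRF2 targets thus lay on both sides: Nqo1 was higher, Srxn1 lower, and Hmox1, Txnrd1, Gclc and Gclm were within the limit.

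**Figure D2:**
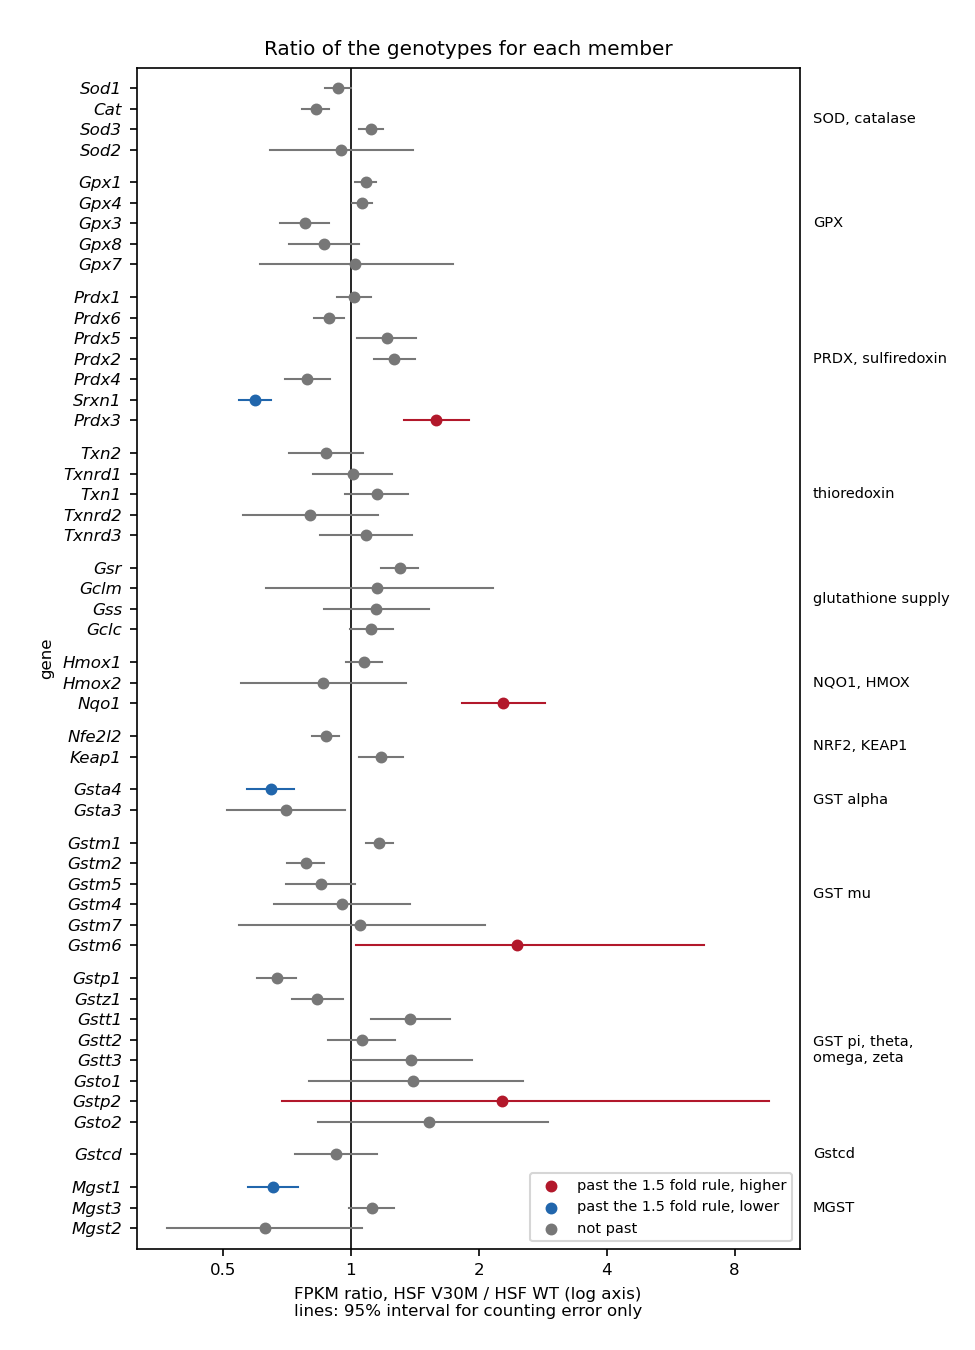
Ratio of HSF V30M to HSF WT FPKM on a log axis for the same 50 genes, with the 95% interval for counting error only as a line. Red points mark the 4 genes higher and blue points the 3 genes lower by more than 1.5-fold after adding 1 to each FPKM; Nqo1 at 2.28 has a narrow interval, whereas Gstm6 and Gstp2 rest on few fragments and have wide ones.

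Among the glutathione S-transferases of the alpha class, 1 of the 2 genes with a mean of at least 1 was lower past the fold. This was Gsta4, which conjugates the lipid peroxidation product 4-hydroxynonenal (ENSMUSG00000032348, plus strand of chromosome 9 from 78182774 to 78209349), with an FPKM of 40.1 in HSF V30M against 61.8 in HSF WT. The HSF WT value was 1.54-fold the HSF V30M value, with a counting interval from 1.36 to 1.75. Gsta3, on chromosome 1, was at 6.99 and 9.94, a log2 ratio of -0.45, within the limit. Gsta1 was listed at 0 in both groups and Gsta2 at 0.07 in HSF V30M, about 1 fragment, and at 0 in HSF WT.

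The 7 genes of the mu class lie side by side on chromosome 3 between 107895821 and 108044894, and they did not move as a block. Gstm1, the most abundant, was at 141 in HSF V30M against 121 in HSF WT. Its neighbour Gstm2 was at 56.0 and 71.5, so that these adjacent genes had log2 ratios of 0.22 and -0.35. Gstm5 was at 28.7 and 33.8. Gstm4 was at 5.80 and 6.09, and Gstm7 at 5.55 and 5.28, which is nearly even. Gstm6 (ENSMUSG00000068762, minus strand from 107938847 to 107943749) was past the fold, at 2.66 in HSF V30M against 1.08 in HSF WT. Only about 24 to 66 fragments against 7 to 22 stand behind these values, the counting interval of the ratio of 2.47 ran from 1.03 to 6.78, and 11.5% of the 50-base words of Gstm6 occur in other genes. Gstm3 was listed at 0 in both groups.

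The pi class lies on chromosome 19 between 4035407 and 4059569, and its genes Gstp1 and Gstp2 share much of their sequence. Gstp1, the main pi enzyme of most tissues, was at 67.4 in HSF V30M against 100.6 in HSF WT, a log2 ratio of -0.57, just short of the fold. Gstp2 (ENSMUSG00000038155, minus strand from 4040285 to 4046023) was higher past the fold, at 4.42 and 1.95. However, 62.3% of the 50-base words of Gstp1 also occur in Gstp2, and 64.3% of those of Gstp2 in Gstp1, so the split of reads between them is uncertain. Summed, the pair had 71.8 in HSF V30M against 103 in HSF WT. The Gstp2 values alone stand for about 12 to 67 fragments against 4 to 24, with a counting interval of the ratio from 0.688 to 9.65. Gstp3 was at 0.08 in HSF V30M, about 1 fragment, and was listed at 0 in HSF WT.

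In the theta and omega classes every gene with a mean of at least 1 had the higher value in HSF V30M, none past the fold. Gstt1 was at 45.2 in HSF V30M against 32.7 in HSF WT, a log2 ratio of 0.45. Gstt3 was at 11.1 and 7.98, but 26.0% of its 50-base words are shared with the overlapping gene model Gm20441. Gstt2 was nearly even at 25.9 and 24.4, and Gstt4 was listed at 0 in both. Gsto1, which also reduces dehydroascorbate, was at 9.72 and 6.93, and its neighbour Gsto2 at 1.82 and 1.19. Gstz1, the zeta enzyme that also takes part in tyrosine breakdown, was at 39.1 and 46.8, and Gstcd at 4.07 and 4.41.

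Of the microsomal transferases, Mgst1 carried the largest difference in absolute level of the module. Mgst1, which protects membranes of the endoplasmic reticulum and outer mitochondria (ENSMUSG00000008540, plus strand of chromosome 6 from 138140316 to 138156755), had 115 in HSF V30M against 175 in HSF WT. The HSF WT value was 1.52-fold the HSF V30M value, with a counting interval from 1.33 to 1.74. Mgst2 was at 4.83 and 7.69, just short of the fold with a log2 ratio of -0.58, whereas Mgst3 was at 36.2 and 32.3. The genes nearest to the limit of 0.58 were thus Mgst1, Gsta4 and Prdx3 just past it and Mgst2 and Gstp1 just short of it.

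The 11 genes with a mean under 1 hold little information. Besides those named above, Gpx2, the glutathione peroxidase of gut epithelium, was at 0.87 in HSF V30M against 0.13 in HSF WT, about 16 to 19 fragments against 2. The counting interval of this ratio, 6.68, ran from 1.57 to 59.9. Gpx5 and Gpx6 were listed at 0 in both groups. For the 6 genes at 0 in both groups, 3 fragments would have given an FPKM between 0.095 and 0.353 in HSF V30M. In HSF WT that range was 0.132 to 0.491. The limit of 3 fragments was a choice. Levels under it can be missed, although values of about 1 or 2 fragments were listed for other genes.

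**Figure D3:**
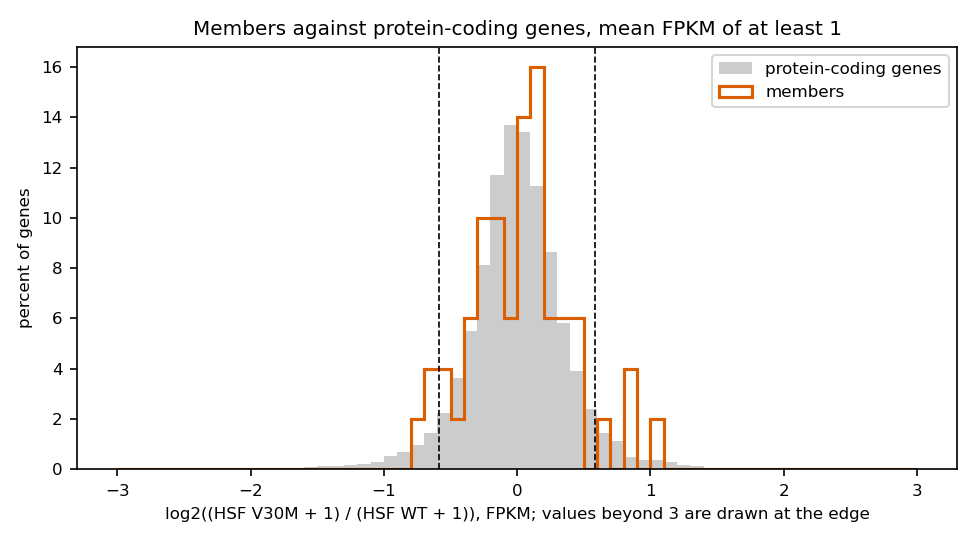
Percent of genes by log2((HSF V30M + 1) / (HSF WT + 1)) in bins of 0.1, for the 50 genes of the module (line) and the 12715 protein-coding genes of the same minimum (grey). Dashed lines mark 1.5-fold; the module is centred at 0.05 and reaches from -0.71 to 1.05.

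Other genes of the same pathways were examined as 97 further genes in 8 lists. Of these, 92 had a mean FPKM of at least 1, and 3 were higher and 6 lower past the fold, 9.78% of them, below the 16.7% of all genes and near the 10.3% of protein-coding genes. The median log2 ratio of the 92 was -0.09. Genes of NADPH supply held the most unequal value. Idh1, the cytosolic isocitrate dehydrogenase, was at 34.0 in HSF V30M against 3.16 in HSF WT, a log2 ratio of 3.07, while Pgd of the pentose phosphate pathway was lower past the fold at 36.3 and 60.0. The other 7 genes of that list were within the limit. Taldo1 had the highest level of that list, at 156 and 183.

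Of the iron and haem handling genes, 3 of 8 were lower past the fold and none higher, beside 8.44% of all genes and 5.32% of protein-coding genes lower. With 8 lists and few genes in each, nothing is read from this count. Trf (transferrin) was at 227 in HSF V30M against 387 in HSF WT. Hp (haptoglobin) was at 54.0 and 96.5, and the biliverdin reductase Blvrb at 38.5 and 61.2. Fth1, the ferritin heavy chain and by far the highest of the list, was within the limit at 4947 and 5557.

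Among thioredoxin and glutaredoxin partners only the mitochondrial glutaredoxin Glrx2 passed, lower at 11.6 in HSF V30M against 24.0 in HSF WT. Txnip, the thioredoxin inhibitor, had the highest level of this list, at 424 and 339. In glutathione turnover and transport, Ggt7 was higher at 4.31 and 1.45, but its locus is shared with Gss and other genes in the table. The same limit holds for 19 of the 50 members with a mean of at least 1, Gss among them, whose loci are shared with other genes. Slc3a2, the partner chain of Slc7a11, was the most abundant of this list at 212 and 242.

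Of the superoxide-generating oxidases, Rac2, a small GTPase that takes part in activating the phagocyte oxidase, was lower at 3.12 and 5.89. Cyba, the membrane subunit p22phox, was at 50.2 and 54.5. Beside these values, 6 of 7 neutrophil markers with a mean of at least 1 were higher past the fold in HSF V30M and the other, Csf3r, was lower past it at 2.63 and 6.05, with summed FPKM of 108 against 32.7 over the list of 8, and 7 of 9 macrophage markers had lower values, with sums of 412 and 616 over 10. The part of these cells in the values was not tested.

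None of the 22 NRF2 partners and other targets, the 13 genes of the selenoprotein list or the 3 metallothioneins passed the fold. The background shares past it were 16.7% of all genes and 10.3% of protein-coding genes. With few genes in each list, nothing is read from these counts. The highest of these lists were the autophagy receptor Sqstm1 at 224 in HSF V30M against 249 in HSF WT, Selenop (selenoprotein P) at 344 and 392, and the metallothionein Mt1 at 134 and 108.

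**Figure D4:**
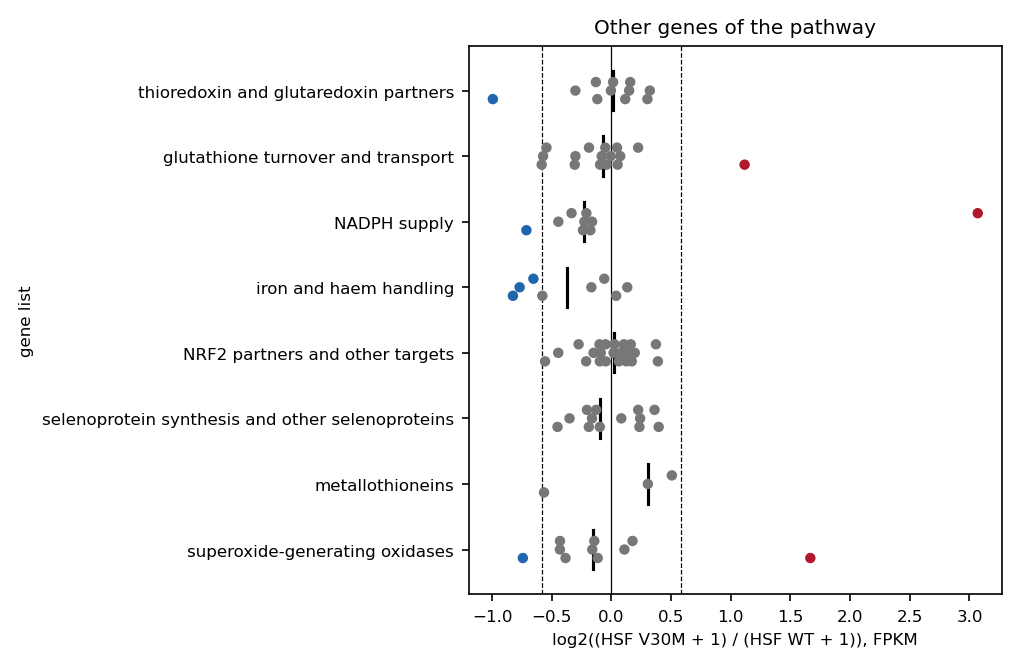
Log2((HSF V30M + 1) / (HSF WT + 1)) of the genes of 8 other lists of the pathway with a mean FPKM of at least 1, 1 point per gene, with the median as a black bar and 1.5-fold as dashed lines. Red and blue points are the 3 genes higher and the 6 lower past the fold; Idh1 at 3.07 stands far to the right.

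Markers of the nerve and of tissue that can be dissected with it were set beside these results. All 12 Schwann cell markers passed the minimum mean, with summed FPKM of 13420 against 11888 and a median log2 ratio of 0.07. All 9 adipocyte markers past the minimum mean had smaller values in HSF V30M, and 3 of them were lower past the fold, with summed FPKM of 2694 against 3653 over the list of 10 and a median log2 ratio of -0.41. Adipoq, a defining adipocyte gene, was at 319 and 543. The part of adipocytes in the value of any member, higher or lower, was not tested.

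All 8 skeletal muscle markers past the minimum mean were lower past the fold, with summed FPKM of 48.1 against 170 over the list of 11, and the myosin gene Myh4 was at 3.74 and 21.1. The sums of the liver list, 139 against 148, were made up almost wholly by Cyp2e1, at 131 and 144, with the defining gene Alb at 1.76 and 3.82. Endothelial markers had sums of 273 and 207 over 8 genes, fibroblast markers 2262 and 2371 over 8, and B cell markers 4.05 and 32.5 over 8. Dcn, at 1331 and 1320, was the largest part of the fibroblast sums. Of the 8 fibroblast markers, 2 were lower past the fold and 0 higher, with a median log2 ratio of -0.30. Of 6 erythrocyte markers with a mean of at least 1, 5 were higher past the fold in HSF V30M. Their list had summed FPKM of 292 against 101 over the 7 of 8 genes that are in the table. The part of erythrocytes in the value of any member, higher or lower, was not tested. In bulk nerve, fewer cells of a type and less RNA per cell cannot be told apart.

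**Figure D5:**
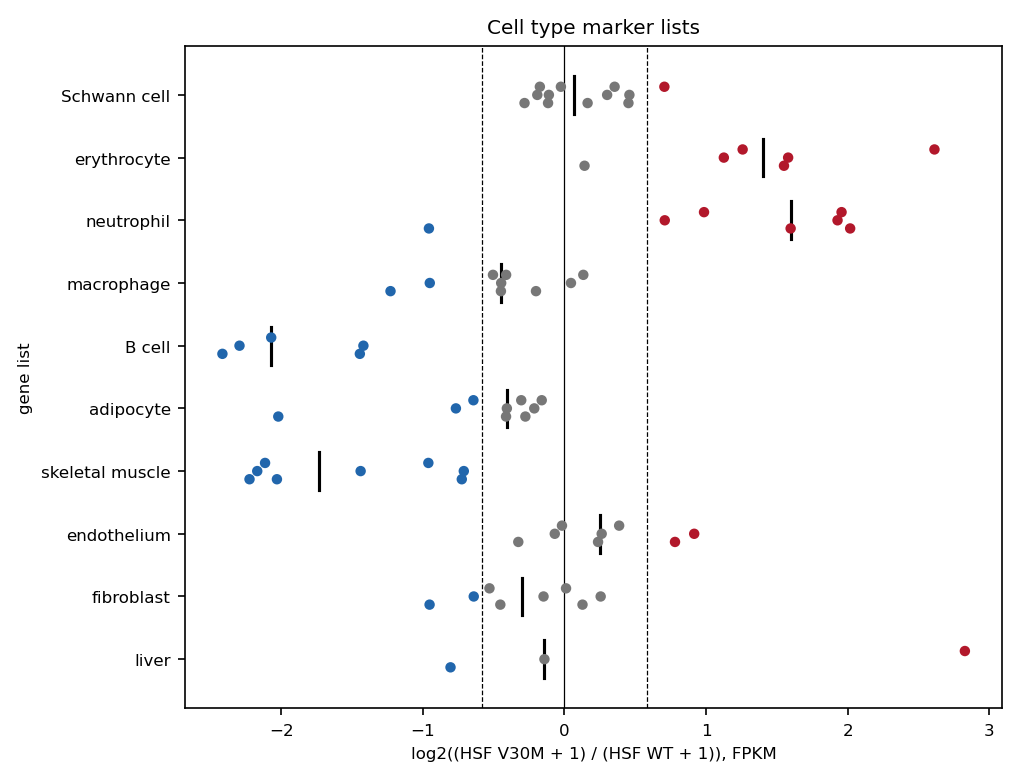
Log2((HSF V30M + 1) / (HSF WT + 1)) of cell type markers with a mean FPKM of at least 1, 1 point per gene, with the median as a black bar and 1.5-fold as dashed lines. Red points are higher and blue points lower past the fold; erythrocyte markers lie to the right, as do the neutrophil markers except Csf3r at -0.96, adipocyte, skeletal muscle and B cell markers lie to the left, and the far right point of the liver list is Ttr.

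The targeted genes give a limited check of the group labels. Hsf1, described as heterozygous in both groups, was lower past the fold, at 7.94 in HSF V30M against 15.0 in HSF WT. Its log2 ratio was -0.84, and the reason was not tested. That the groups share the same Hsf-1 dosage thus rests on their description. For mouse Ttr, which is null in HSF V30M, the value was 6.10 there and 0 in HSF WT. Reads of the human transgene and of the mouse gene cannot be told apart in a table of this kind. The groups are therefore named as labelled, and every direction given above rests on those labels.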

How the data were processed

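RNA from the sciatic nerve of 2 HSF V30M and 2 HSF WT mice (the methods give n = 4, without naming the unit) was sequenced with Ion Torrent libraries. The authors used GRCm38 for alignment, which is C57BL/6J and not the strain of the mice, and the processing notes name STAR, Cufflinks and Cuffdiff without versions. The deposited file lists 1 pooled Cuffdiff FPKM for each gene and genotype. Its fold changes, p-values and q-values are the authors' own comparison and were not used. Decimal commas were turned into points, columns were taken by number because the header lacks tabs, and 23 genes with too many alignments were left out.

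A pseudocount of 1 was added to each FPKM before the log2 ratio, and genes with a mean of at least 1 were counted past a fold of 1.5. The planned fit on values per mouse could not be run, so no test between the genotypes was made. Every member with a mean of at least 1 was named, with the genes of the other lists past the fold and the highest of each list, apart from items that are not reported here. The members and lists were chosen with earlier results of these data known. For depth, genes with 1 transcript and no other gene in their locus were used, the effective length being 197 bases under the annotated one. In HSF WT, 97.8% of 802 low values lay at 1 fragment of either library. The share was 80.0% of 360 in HSF V30M, a weaker reading because the file rounds that column to 2 decimals. The shares are unlike measures, since HSF V30M was read from shorter transcripts and with a wider tolerance. The offset of 197 bases was the one that put the most HSF WT values near 1 fragment. Fragment ranges use the shortest and longest protein-coding transcript of GENCODE M21 (GRCm38), where all 61 members were found. Shared sequence is the share of 50-base words of the longest coding transcript that occur in transcripts of another gene. Promoters are from RefSeq, and 9 members without an entry were not searched. Whether the calls near the fold of 1.5, or those of Gstm6 and Gstp2 on few fragments, hold from mouse to mouse was not tested. The tools were matplotlib 3.10.9, scipy 1.17.1, pandas 2.3.3, numpy 2.4.6 and Python 3.11.15. Alternatives were a pseudocount of 0.1, a minimum mean of 5 or none, a fold of 2, median-of-ratios scaling, and leaving out Gstcd with the non-coding member or, chosen after seeing the data, members with over 50% of words shared.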

Additional observations from a re-analysis of the deposited data

How the results depend on the processing

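No paired analysis was possible because single mice have no values in this table, and leaving out single mice was likewise not run. The number of members past the fold was 7 as reported and between 5 and 8 under the other settings, except with a fold of 2, which is stricter by construction and left 1 higher (Nqo1) and 0 lower. With a minimum mean FPKM of 5, 2 members were higher, because fewer genes were counted. The median log2 ratio of the members stayed above 0, at 0.025 with a minimum of 5, 0.0435 with median-of-ratios scaling, 0.0609 without Gstcd and Prdx2-rs3, and 0.0324 without the 3 members that share most of their sequence. Of the other pathway genes, 3 were past a fold of 2, with 0 lower, and 10 were lower with a pseudocount of 0.1, which moves low genes most. Of 100 recomputed ratios of the 50 named members, 99 kept their side of the fold, and Mgst2 passed it with a pseudocount of 0.1 at -0.66. The erythrocyte and neutrophil medians stayed above 0 and the adipocyte, skeletal muscle and macrophage medians below 0 in each of the 3 settings run. Depth limits Gstm6, Gstp2 and the members under 1 FPKM.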

Other observations

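The symbol rule left out 4 pseudogenes of these families. Gstp-ps, a processed copy of the pi class, had an HSF V30M value of 4.61 FPKM against 6.06 in HSF WT, Gstm2-ps1 had 0.36 against 0.952, Gpx2-ps1 had 0.25 against 0.434, and Prdx6-ps2 had 0 against 0.0974.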
